A study of Mus musculus with 96 samples.

Results

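The genes described here are the members of the cell cycle and replication gene families on a mouse 2-colour array: the Mcm, cyclin A to H, Cdk, Cdc, Cenp, Kif and Aurora kinase genes and the cohesin acetyltransferase Esco2. They were chosen by the start of their gene symbol, and Esco2 by its name alone, in a choice made with earlier results of these data known, which gave 94 genes on 140 probes, out of 10699 named genes and 16281 probes on the array. Of these genes, 90 had enough values to be tested, among 11594 genes and unnamed probes tested in all. A choice by name also takes in genes with other work, such as transport kinesins, Cdc42 effectors and Cdk5 partners, which were kept and are described by role.

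RAW 264.7 cells, an established mouse macrophage-like line transformed by Abelson murine leukaemia virus, were treated with LPS and IFNG together, LPS and 2MA together, LPS alone, IFNG alone or 2MA alone. LPS is bacterial lipopolysaccharide, IFNG is interferon gamma and 2MA is 2-methyl-thio-ATP, an analogue of ATP. Each treatment was set against untreated cells of the same line and time. Treatments lasted 1, 2 or 4 h, and LPS alone also 30 min, which makes 16 groups. Every LPS sample received 100 ng of LPS (the labels give no volume) with 100 pM LPS-binding protein, IFNG was given at 5 nM and 2MA at 500 uM, although 1 sample's description gives 500 nM. Each group had 3 numbered sets, each hybridised on 2 arrays with the dyes exchanged, so 96 arrays gave 48 set values of the log2 ratio of treated over untreated RNA. The labels do not say that sets came from separate cultures, so p-values may measure a technical spread only, and they do not say whether groups of 1 time shared untreated RNA.

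Each array had a value other than 0 for 13508 to 15004 probes. Before the sign was turned for arrays with treated RNA in Cy3, the 2 arrays of a set correlated between -0.784 and 0.396 over all probes. The value was above 0 in 10 of 48 sets. Turning 1 array of a set reverses the sign of this correlation, so values below 0 mean that the dye orientations agree. A dye effect passed the test in 9466 of 11594 genes and in 76 of the 90 members, so all values below are means over both dye orientations. Ratios carry no level, so cell type markers could be followed only as ratios: of 8 macrophage markers 6 were tested, of which 3 rose and 1 fell at 4 h in each of the groups with LPS. At 4 h of LPS alone 1 of 4 T cell markers and 1 of 3 neutrophil markers rose, while the fibroblast, B cell and epithelial markers tested gave no call at 4 h in the groups with LPS or IFNG. In bulk RNA of this kind, fewer cells in a phase of the cycle and less RNA of a gene per cell cannot be told apart.

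Cells prepare to copy their DNA by loading the ring-shaped Mcm2 to Mcm7 helicase onto origins with the help of Cdc6, and start copying when Cdc7 and the cyclin E and cyclin A kinases act on it. Cyclin B with Cdk1 then drives mitosis, in which Cenp proteins build the kinetochore, mitotic kinesins build and move the spindle, Aurora kinases correct attachments and the anaphase-promoting complex with Cdc20 ends it. Many of these genes are transcribed in waves, with E2F factors acting before S phase and the CHR and CCAAT elements acting before mitosis, and macrophages activated by LPS or IFNG are known to slow or stop dividing.

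At 4 h the families moved down in each treatment that held LPS or IFNG. A gene is said to have fallen or risen here when limma's moderated test of its mean log2 ratio over 3 sets, adjusted by Benjamini-Hochberg over all 11594 genes, gave p under 0.05. With LPS and IFNG together 48 of 90 members fell and 7 rose, where 18.8% of all genes tested fell and 15.2% rose. With LPS and 2MA together 48 fell and 11 rose, against 18.5% and 14.9% of all genes. With LPS alone 42 fell and 9 rose (15.9% and 12.7% of all genes), and with IFNG alone 25 fell and 1 rose (5.99% and 6.30%). 2MA alone gave 0 calls at 4 h (2.00% of all genes in either direction), with 14 members at an unadjusted p under 0.05 and 6 called when each array was a value and the dye a term. The median log2 ratio of the members at 4 h was -0.258 with LPS and IFNG, -0.27 with LPS and 2MA, -0.265 with LPS, -0.168 with IFNG and -0.082 with 2MA, and the medians over all genes lay between -0.0142 and 0.00241. Leaving out set 1 lowered the count of LPS at 4 h to 33 of 51 calls and that of IFNG to 15 of 26. The calls that passed without each set in turn were 38 of 55 with LPS and IFNG, 38 of 59 with LPS and 2MA, 30 of 51 with LPS and 15 of 26 with IFNG.

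**Figure D1:**
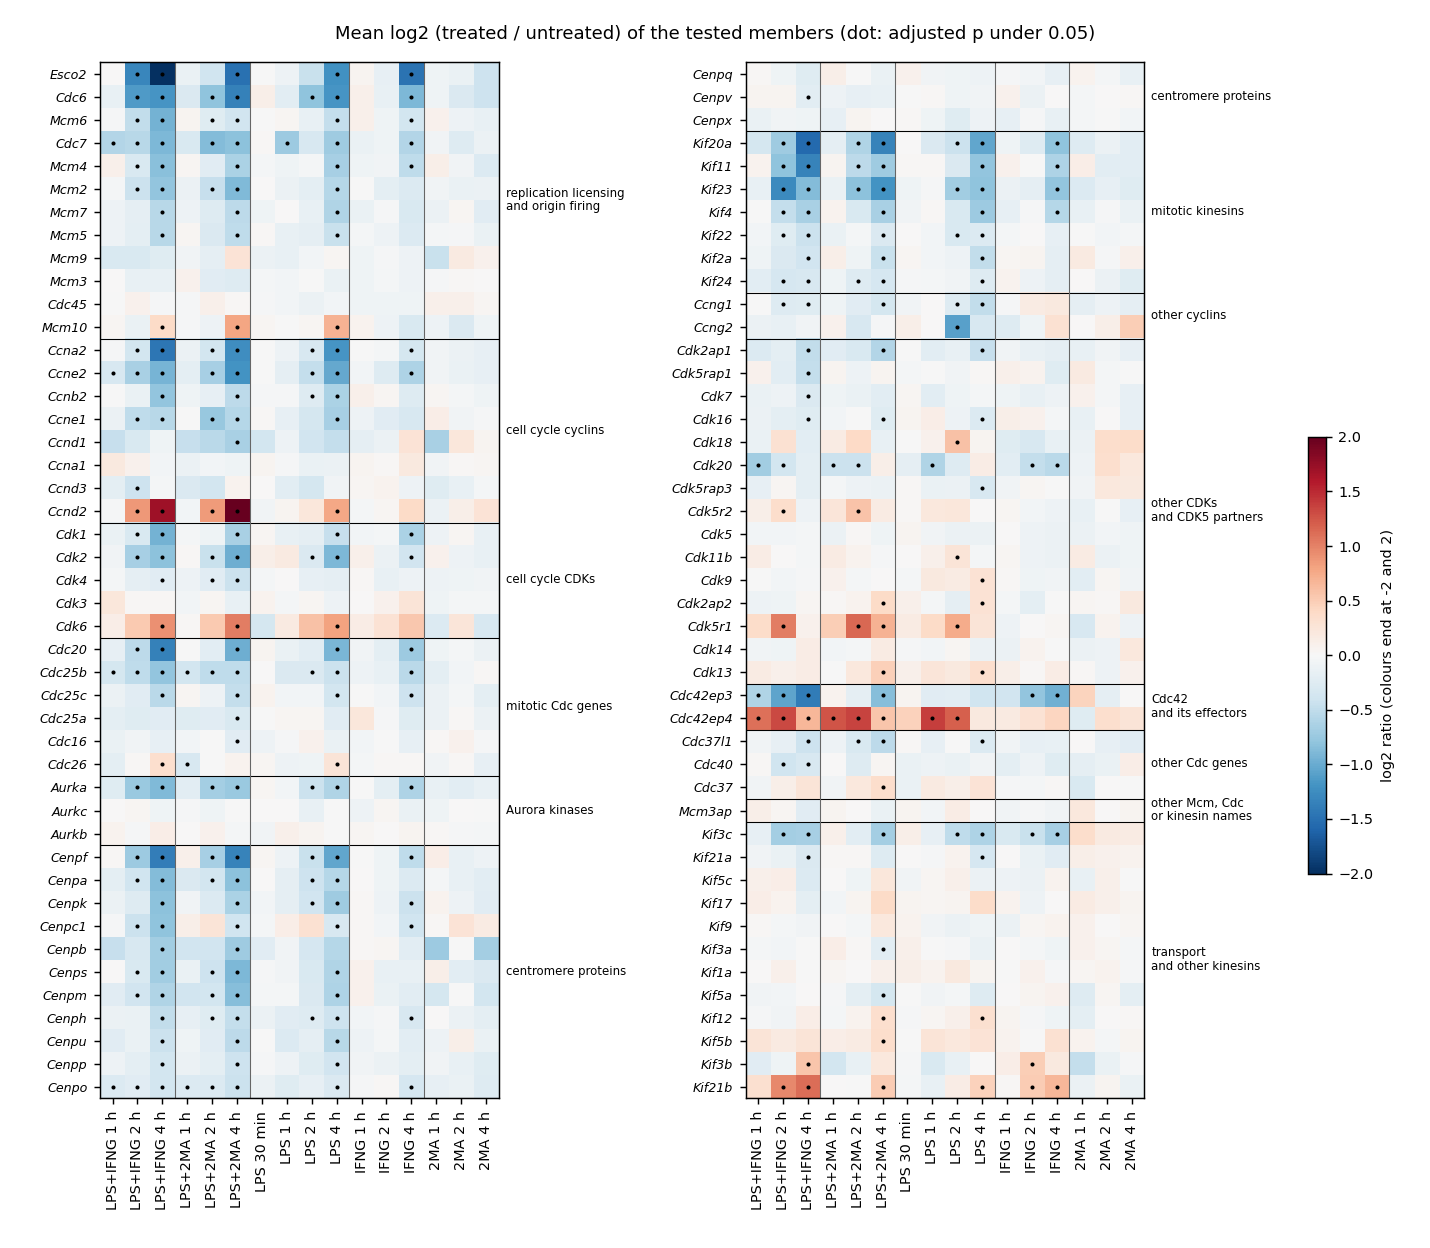
Mean log2 ratio of treated over untreated RNA for the 90 tested members (rows, ordered by role) in the 16 groups (columns, times low to high within each treatment). Blue is a negative and red a positive log2 ratio, each a mean of 3 sets, with colours ending at -2 and 2, and a dot marks an adjusted p under 0.05. The blue block of the licensing, cyclin, centromere and mitotic kinesin rows deepens at 4 h in the columns that hold LPS or IFNG, and the 2MA columns stay pale.

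Most of the members that fell are genes of the division machinery. The class joins the replication genes, cell cycle cyclins and CDKs, mitotic Cdc genes, Aurora kinases, centromere proteins and mitotic kinesins. It thus includes G1 genes, and Ccnd2 and Cdk6 are among its rises with LPS. Of these 55 members, 38 fell and 4 rose at 4 h with LPS and IFNG, and 40 fell and 3 rose with LPS and 2MA. With LPS alone 35 fell and 4 rose, and with IFNG alone 22 fell and none rose. Of the 35 tested members with other roles, 10 fell and 3 rose with LPS and IFNG, 8 fell and 8 rose with LPS and 2MA, 7 fell and 5 rose with LPS, and 3 fell and 1 rose with IFNG. Of all genes 18.8% fell and 15.2% rose with LPS and IFNG, and 18.5% and 14.9% with LPS and 2MA. The shares were 15.9% and 12.7% with LPS, and 5.99% and 6.30% with IFNG. The difference between these classes was not tested.

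Proximal promoter sequences are shown for 8 members that moved at 4 h, because the transcription of this group is known to run through short elements close to the start of the gene. These 8 were picked by name, and shares over all matched members follow the sequences. Sequences are RefSeq's for build GRCm38.p6, on the strand of the gene, 5′ to 3′, and end at the base before the annotated start; 79 of the 94 members matched. Not matched were Aurkb, Ccna2, Ccnd1, Ccnd2, Ccne2, Cdc25c, Cdk3, Cdk5, Cdk5r1, Esco2, Kif20a, Kif21b, Kif5a, Kif5b and Mcm4. Capitals mark matches on either strand to the E2F words TTTCCCGC, TTTGGCGC and TTTCGCGC, to the CHR word TTTGAA and to CCAAT, and matches to different E2F words on opposite strands can overlap, as in Mcm6. Cdc6 (chr11:98907991-98908150, plus strand), Cdk2 (chr10:128705052-128705211, minus strand), Mcm6 (chr1:128359706-128359865, minus strand) and Cdk1 (chr10:69352913-69353072, minus strand) fell and hold an E2F word. In the printed bases Cdk1 also holds 2 CHR and 2 CCAAT matches, Mcm6 holds 2 CCAAT matches and Cdk2 holds 1. Cdc20 (chr4:118437344-118437503, minus strand) and Ccnb2 (chr9:70421555-70421714, minus strand) fell and hold CCAAT but no E2F word, Cdc20 with a CHR word too. Ccnb2 has a CHR word 167 bases before the start, outside the bases printed here. Mcm10 (chr2:5012792-5012951, minus strand) and Cdk6 (chr5:3343733-3343892, plus strand) rose with LPS. Mcm10 holds 2 CCAAT matches and Cdk6 none of the words.
Cdc6: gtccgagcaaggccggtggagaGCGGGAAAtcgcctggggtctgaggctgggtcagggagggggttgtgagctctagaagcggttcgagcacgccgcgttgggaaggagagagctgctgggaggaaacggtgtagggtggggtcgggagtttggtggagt
Cdk2: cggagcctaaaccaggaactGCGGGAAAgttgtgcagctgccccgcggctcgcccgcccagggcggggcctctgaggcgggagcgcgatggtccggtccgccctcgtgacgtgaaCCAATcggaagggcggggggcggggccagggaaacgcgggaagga
Mcm6: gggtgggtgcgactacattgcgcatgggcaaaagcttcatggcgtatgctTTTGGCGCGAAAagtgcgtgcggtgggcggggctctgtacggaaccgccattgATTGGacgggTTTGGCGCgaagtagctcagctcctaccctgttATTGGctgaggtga
Cdk1: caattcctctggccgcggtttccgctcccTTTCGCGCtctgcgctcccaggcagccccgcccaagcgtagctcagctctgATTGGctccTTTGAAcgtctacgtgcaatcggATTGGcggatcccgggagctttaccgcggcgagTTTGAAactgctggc
Cdc20: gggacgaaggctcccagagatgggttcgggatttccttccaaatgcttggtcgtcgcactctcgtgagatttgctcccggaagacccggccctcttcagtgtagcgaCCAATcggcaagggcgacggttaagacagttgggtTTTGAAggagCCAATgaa
Ccnb2: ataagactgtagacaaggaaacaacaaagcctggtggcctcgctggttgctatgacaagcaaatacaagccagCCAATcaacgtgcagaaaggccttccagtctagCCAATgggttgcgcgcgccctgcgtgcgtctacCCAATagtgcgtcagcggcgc
Mcm10: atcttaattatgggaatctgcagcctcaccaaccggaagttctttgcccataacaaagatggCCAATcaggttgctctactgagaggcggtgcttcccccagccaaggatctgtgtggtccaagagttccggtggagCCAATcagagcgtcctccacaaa
Cdk6: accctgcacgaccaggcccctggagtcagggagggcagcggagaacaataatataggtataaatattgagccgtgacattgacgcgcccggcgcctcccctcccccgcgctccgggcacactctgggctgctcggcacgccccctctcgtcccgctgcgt

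The E2F word lay 138 bases before the start in Cdc6, 140 in Cdk2 and 131 in Cdk1, and Mcm6 held 3 matches at 110, 106 and 47 bases. Over the 250 bases before the start, an E2F word was present in 9 of 79 members (11.4%), namely Cdc25a, Cdc6, Cdk1, Cdk2, Cenpb, Cenpm, Mcm5, Mcm6 and Mcm7, and in 480 of 27025 genes of the table (1.78%). A CHR word was present in 14 of 79 members (17.7%) and in 18.3% of all genes, and CCAAT in 43 members (54.4%) and in 37.5% of all genes. Among the 42 matched members that fell with LPS and IFNG at 4 h, 8 held an E2F word, 11 a CHR word and 23 CCAAT. Of the 32 matched members with no fall in any of the 4 groups at 4 h, 0, 3 and 17 did. These 32 include Cdc42, Cdc42ep5, Kif1b and Kif2b, which had too few values to be tested. None of those untested members holds an E2F or CHR word, and Kif1b and Kif2b hold CCAAT. A match of letters is a description of these windows and shows no binding.

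Of the 6 helicase genes Mcm2 to Mcm7, 5 fell in each of the 3 groups with LPS at 4 h and 2 fell with IFNG, and their loader Cdc6 fell in all 4 groups. Cdc6, which loads the Mcm ring, gave log2 ratios of -0.98, -0.75 and -1.79 in sets 1, 2 and 3 with LPS and IFNG (mean -1.18 ± 0.54 SD, n = 3, limma adjusted p = 2.4e-10). It gave -1.19, -1.14 and -1.73 with LPS and 2MA, -1.13, -0.87 and -1.55 with LPS, and -0.91, -0.80 and -0.98 with IFNG. All 12 of these sets were below 0, and with 2MA alone the mean was -0.42 (adjusted p = 0.068). Mcm6, a helicase subunit, gave -0.80, -1.0 and -1.04 with LPS and IFNG, and means of -0.38 with LPS and 2MA, -0.47 with LPS and -0.37 with IFNG. The sets of the joint treatment lay below every set of the other 3 groups. Mcm2 and Mcm4 fell with LPS and IFNG by means of -0.79 and -0.84, with LPS and 2MA by -0.89 and -0.63 and with LPS by -0.57 and -0.66; with IFNG Mcm4 fell (-0.50) and Mcm2 averaged -0.28 (adjusted p = 0.075). Mcm5 and Mcm7 fell in the 3 groups that held LPS (means between -0.45 and -0.60) and averaged -0.27 and -0.30 with IFNG, where neither passed. The call of Mcm7 with LPS and IFNG was lost without set 3 (adjusted p = 0.053).

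Esco2, which acetylates cohesin during S phase to hold sister chromatids together, had the lowest mean of all members. Esco2 was chosen by its name alone with earlier results of these data known, so this rank is not independent of the choice. It gave -2.11, -1.81 and -2.68 with LPS and IFNG (mean -2.20 ± 0.44 SD, n = 3, a 4.59-fold decrease, limma adjusted p = 1.0e-13). With LPS and 2MA it gave -1.42, -1.31 and -1.76, with LPS -1.29, -0.76 and -1.57, and with IFNG -1.43, -1.68 and -1.33. The 3 sets of the joint treatment were lower than all 9 sets of those groups, and with 2MA alone the values were -0.34, -0.45 and -0.47 (mean -0.42, adjusted p = 0.28). Cdc7, the kinase that fires loaded origins, fell with LPS and IFNG (-0.90), LPS and 2MA (-0.83), LPS (-0.71) and IFNG (-0.59), and its call with IFNG was lost without set 1 (adjusted p = 0.054) and without set 3 (0.061).

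Not every replication gene fell. Mcm10, which joins the helicase as origins fire, rose with LPS and 2MA (0.99, 1.03 and 0.33) and with LPS (0.84, 1.02 and 0.20), and averaged -0.31 with IFNG (-0.32, -0.33 and -0.27, adjusted p = 0.083). With LPS and IFNG it gave 0.70, 0.44 and 0.01 (mean 0.38, adjusted p = 0.0075), a call that was lost without set 1 (adjusted p = 0.42) and without set 2 (0.084). Set 3 was the lowest in each of the 3 groups that held LPS. The 2 Mcm10 probes were 0.546 apart with LPS, and averaged 0.203 and 0.567 with LPS and IFNG. Cdc45, the helicase's partner at the fork, stayed within 0.2 of 0 in every set of these 4 groups as a mean of 2 probes, which averaged -0.24 and 0.19 with LPS and IFNG. Mcm9, a relative that acts in repair, passed in none of them. Mcm3 did not pass either (means between -0.10 and -0.26), but its 2 probes differed: 1 fell by -0.44 with LPS and IFNG (adjusted p = 0.0043) and the other averaged 0.13.

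**Figure D2:**
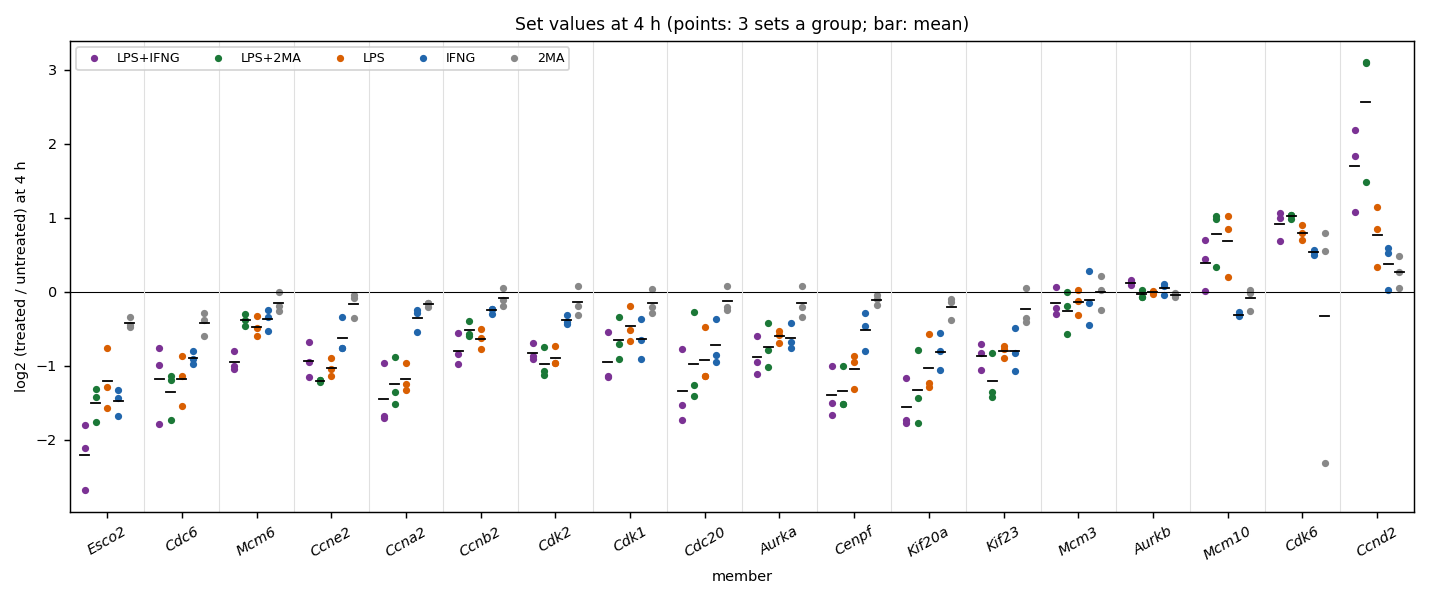
Log2 ratio of treated over untreated RNA in each of 3 sets (points) at 4 h, with the mean (line), for selected members in cells treated with LPS and IFNG, LPS and 2MA, LPS, IFNG and 2MA. Esco2 reaches its lowest values, -1.81 to -2.68, with LPS and IFNG, and Ccnd2 its highest, 1.49 to 3.10, with LPS and 2MA.

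Of 8 tested cyclins of types A, B, D and E, 4 fell and 1 rose with LPS and IFNG, 5 fell and 1 rose with LPS and 2MA, 4 fell and 1 rose with LPS, and 2 fell with IFNG. In this order 18.8%, 18.5%, 15.9% and 5.99% of all genes fell, and 15.2%, 14.9%, 12.7% and 6.30% rose. Ccna2, the S and G2 phase cyclin A2, gave -1.67, -1.71 and -0.96 with LPS and IFNG (mean -1.45 ± 0.42 SD, n = 3, a 2.73-fold decrease, limma adjusted p = 1.3e-14), -1.36, -1.51 and -0.88 with LPS and 2MA, and -1.32, -1.24 and -0.96 with LPS. With IFNG alone it gave -0.28, -0.54 and -0.25 (mean -0.36, adjusted p = 0.017), and no IFNG set reached the values of the groups with LPS. Its IFNG call was lost without set 1 (adjusted p = 0.14) and without set 2 (0.23). Ccne2 and Ccne1, the E cyclins of the G1 to S step, fell with LPS and IFNG by -0.93 and -0.56, with LPS and 2MA by -1.20 and -0.56, and with LPS by -1.02 and -0.67. With IFNG Ccne2 fell by -0.62 and Ccne1 averaged -0.31 (adjusted p = 0.11). The 2 probes of Ccne1 differed by more than 0.5 with LPS and IFNG (-1.03 and -0.09). Ccnb2, a mitotic cyclin B, fell with LPS and IFNG (-0.98, -0.84 and -0.56), LPS and 2MA (mean -0.52) and LPS (-0.63), and averaged -0.25 with IFNG (adjusted p = 0.051).

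Of the 3 D cyclins, which carry growth signals into G1, Ccnd2 rose in the 3 groups with LPS, Ccnd1 fell in 1 of them and Ccnd3 passed in none. Ccnd2 gave 3.10, 3.09 and 1.49 with LPS and 2MA (mean 2.56 ± 0.93 SD, n = 3, a 5.90-fold increase, limma adjusted p = 7.9e-13), 2.19, 1.84 and 1.08 with LPS and IFNG (mean 1.70) and 1.14, 0.85 and 0.33 with LPS (mean 0.77, adjusted p = 0.0044). With IFNG it gave 0.53, 0.59 and 0.02 and with 2MA 0.49, 0.27 and 0.06, and neither passed. Set 3 was the lowest in all 5 groups, and the LPS call was lost without set 1 (adjusted p = 0.16) and without set 2 (0.091). Both Ccnd2 probes were positive with LPS and IFNG (1.06 and 2.34). Ccnd1 fell with LPS and 2MA (-0.57, -0.67 and -0.69, adjusted p = 0.013), a call lost without set 1 (0.054) and without set 2 (0.083), and averaged -0.08 with LPS and IFNG, -0.48 with LPS (adjusted p = 0.083) and 0.27 with IFNG. Ccnd3 averaged between -0.10 and 0.07 in these 3 groups and with IFNG.

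Among the cyclin-dependent kinases, those of S phase and mitosis fell and the G1 kinase Cdk6 rose. Cdk2, the partner of cyclins E and A, gave -0.87, -0.91 and -0.69 with LPS and IFNG, -1.13, -1.07 and -0.75 with LPS and 2MA, -0.97, -0.97 and -0.74 with LPS, and -0.44, -0.40 and -0.31 with IFNG, all past the test. Every set with LPS was below every set with IFNG alone. Cdk1, the kinase of mitosis, gave -1.14, -1.15 and -0.54 with LPS and IFNG (mean -0.94), and fell with LPS and 2MA (-0.65), LPS (-0.46) and IFNG (-0.64); its LPS call was lost without set 1 (adjusted p = 0.069), and so was the Cdk2 call with IFNG (0.078). Cdk4, a G1 kinase of the D cyclins, fell with LPS and 2MA (-0.43) and with LPS and IFNG (-0.23, adjusted p = 0.022, and 0.084, 0.18 and 0.061 without set 1, 2 and 3). Cdk6, the other D cyclin kinase, gave 1.06, 0.68 and 1.0 with LPS and IFNG, 1.04, 1.04 and 0.98 with LPS and 2MA, and 0.80, 0.91 and 0.70 with LPS, with adjusted p of 0.010, 0.0042 and 0.031. It gave 0.49, 0.53 and 0.57 with IFNG (adjusted p = 0.28), and in all 3 groups with LPS its call was lost without set 1 or set 2. The adjusted p was then 0.15 and 0.051 with LPS and IFNG, 0.072 and 0.061 with LPS and 2MA, and 0.20 and 0.19 with LPS, where the fit with a replicate block gave 0.052. Cdk6 sets of other groups were far apart, with 1 set of 2MA at 4 h at -2.32 and 1 set of LPS at 30 min at -1.58.

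Of 6 tested Cdc genes of mitotic entry and exit, 3 fell and 1 rose with LPS and IFNG, 5 fell with LPS and 2MA, 3 fell and 1 rose with LPS, and 3 fell with IFNG. In this order 18.8%, 18.5%, 15.9% and 5.99% of all genes fell, and 15.2%, 14.9%, 12.7% and 6.30% rose. Cdc20, which turns on the anaphase-promoting complex, gave -1.73, -1.53 and -0.77 with LPS and IFNG, -1.26, -1.40 and -0.27 with LPS and 2MA, -1.14, -1.13 and -0.48 with LPS, and -0.95, -0.85 and -0.37 with IFNG. It passed in all 4 groups, set 3 was the highest in each, and the IFNG call was lost without set 1 (adjusted p = 0.096). Cdc25b and Cdc25c, phosphatases that switch on Cdk1, fell in all 4 groups too, by -0.78 and -0.53 with LPS and IFNG, -0.51 and -0.48 with LPS and 2MA, -0.43 and -0.37 with LPS and -0.54 and -0.41 with IFNG. Without set 1 Cdc25c did not pass in any of these groups (adjusted p of 0.072, 0.11, 0.37 and 0.15), nor did Cdc25b with LPS (0.065). Without set 2 Cdc25c did not pass with LPS (0.10) and IFNG (0.26). Cdc25a, the phosphatase that acts on Cdk2, fell with LPS and 2MA (-0.31, adjusted p = 0.022, and 0.10, 0.061 and 0.11 without set 1, 2 and 3) and passed in no other. Members of the anaphase-promoting complex itself differed: Cdc26 rose with LPS and IFNG (0.33) and with LPS (0.27), and Cdc16 fell with LPS and 2MA (-0.23). Without set 1 the adjusted p of Cdc26 was 0.095 and 0.32 in those groups and that of Cdc16 0.21, and without set 3 that of Cdc16 was 0.33.

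Of the Aurora kinases, Aurka, which matures the spindle poles, fell with LPS and IFNG (-1.11, -0.94 and -0.60), LPS and 2MA (-1.01, -0.78 and -0.43), LPS (-0.69, -0.58 and -0.52) and IFNG (-0.68, -0.75 and -0.42). Aurkb, the Aurora kinase of the centromere, averaged 0.13, -0.04, -0.01 and 0.05 in those 4 groups and passed in none, although it passed with LPS and IFNG when zeros were kept (0.13) or the arrays were centred (0.14). Aurkc passed in none.

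Centromere proteins fell or did not pass, and none of the 14 rose in any of the 4 groups at 4 h. With LPS and IFNG 12 fell, with LPS and 2MA 11, with LPS 10 and with IFNG 5. In this order 18.8%, 18.5%, 15.9% and 5.99% of all genes fell. Cenpf, a kinetochore protein of late G2 and mitosis, gave -1.51, -1.66 and -1.0 with LPS and IFNG, -1.52, -1.51 and -1.0 with LPS and 2MA, -0.94, -1.31 and -0.87 with LPS, and -0.46, -0.79 and -0.29 with IFNG (mean -0.51, adjusted p = 0.019, and 0.24 and 0.18 without set 1 and without set 2). Each IFNG set was above every set of the groups with LPS. Cenpa, the histone H3 variant that marks centromeres, fell with LPS and IFNG (-0.86), LPS and 2MA (-0.82) and LPS (-0.57), and averaged -0.28 with IFNG (adjusted p = 0.10). Cenps behaved alike in its calls, with means of -0.69, -0.90, -0.60 and -0.14 in the same order, and Cenph fell in all 4 groups (-0.50, -0.48, -0.41 and -0.31), with IFNG not without set 1 (adjusted p = 0.15) or set 2 (0.054).

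All 7 tested kinesins grouped here as mitotic, Kif24 among them, fell in each of the 3 groups with LPS, and 4 fell with IFNG. Of all genes 18.8% fell with LPS and IFNG, 18.5% with LPS and 2MA, 15.9% with LPS and 5.99% with IFNG. Kif20a, needed for cytokinesis, gave -1.73, -1.77 and -1.16 with LPS and IFNG, -1.44, -1.77 and -0.79 with LPS and 2MA, -1.24, -1.29 and -0.57 with LPS, and -0.80, -1.06 and -0.56 with IFNG. Kif11, the motor that pushes spindle poles apart, gave -1.58, -1.42 and -1.0 with LPS and IFNG, and averaged -0.72 with LPS and 2MA, -0.79 with LPS and -0.62 with IFNG. Kif23, a subunit of the central spindle complex, fell with LPS and 2MA (-1.35, -1.42 and -0.83), LPS and IFNG (-0.86), LPS (-0.80) and IFNG (-0.79). Kif4, a chromosome-bound motor, fell with LPS and IFNG together (-0.66), LPS and 2MA (-0.66), LPS alone (-0.73) and IFNG alone (-0.58). Kif22, another chromosome-bound motor, fell in the 3 groups with LPS (-0.43, -0.28 and -0.28). Without 1 set the adjusted p of Kif22 reached 0.082 with LPS and 2MA (set 1) and 0.097 with LPS (set 2). The calls of Kif2a and Kif24 were lost without some set in each of the 3 groups with LPS. Their adjusted p then reached 0.233 and 0.0969 with LPS and IFNG, 0.188 and 0.11 with LPS and 2MA, and 0.145 and 0.308 with LPS. The probes of Kif24 were 0.727 apart with LPS and 2MA, and their means correlated at only 0.0689 over the 16 groups.

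**Figure D3:**
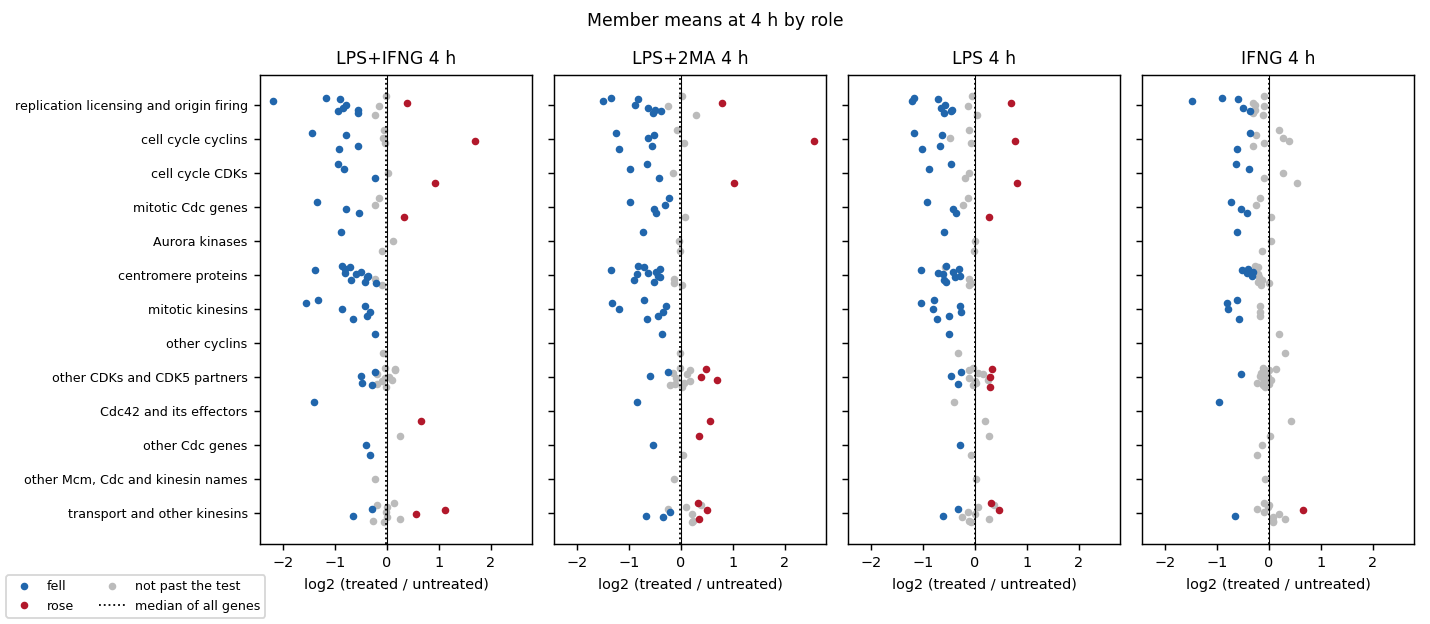
Log2 ratio of treated over untreated RNA at 4 h (horizontal axis) for each tested member (points), by role (rows), in cells treated with LPS and IFNG together, LPS and 2MA together, LPS alone and IFNG alone. Blue points fell, red points rose, grey points did not pass, and the dotted line is the median of all genes. All centromere and mitotic kinesin points that passed the test lie left of 0, while transport kinesins and the other Cdks lie on both sides.

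The members whose work lies outside the division cycle were called in both directions, at shares near those of all genes in the transport kinesins. Of 12 tested transport kinesins, 2 fell and 2 rose with LPS and IFNG, 3 fell and 3 rose with LPS and 2MA, 2 fell and 2 rose with LPS, and 1 fell and 1 rose with IFNG. Of all genes 18.8% fell and 15.2% rose with LPS and IFNG, 18.5% and 14.9% with LPS and 2MA, 15.9% and 12.7% with LPS, and 5.99% and 6.30% with IFNG. Kif21b, a motor that restrains microtubule growth, gave 1.36, 0.57 and 1.43 with LPS and IFNG, 0.68, 0.27 and 0.58 with LPS and 2MA, 0.54, 0.23 and 0.64 with LPS and 0.65, 0.25 and 1.08 with IFNG, with set 2 the lowest in each. Its calls were lost without set 1 and set 3 with LPS (adjusted p of 0.18 and 0.12) and with IFNG (0.058 and 0.13), and without set 1 with LPS and 2MA (0.17). Kif3c, a motor of the kinesin-2 family, fell in all 4 groups by -0.66, -0.68, -0.61 and -0.66, and Kif3b of the same family rose with LPS and IFNG (0.55, adjusted p of 0.054 and 0.059 without set 1 and without set 3). Of 15 tested other Cdks and Cdk5 partners, 4 fell and none rose with LPS and IFNG, 2 fell and 3 rose with LPS and 2MA, 3 fell and 3 rose with LPS, and 1 fell with IFNG. Cdc37l1, a relative of the kinase chaperone Cdc37, fell with LPS and IFNG (-0.41), LPS and 2MA (-0.53) and LPS (-0.28, with an adjusted p of 0.066 without set 3). Cdc42ep3, an effector of the GTPase Cdc42 in actin and septin organisation, gave -1.89, -1.11 and -1.20 with LPS and IFNG, -1.16, -0.85 and -0.54 with LPS and 2MA and -1.04, -0.60 and -1.26 with IFNG, and averaged -0.40 with LPS (adjusted p = 0.058).

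The fall built up between 1 and 4 h. LPS gave 0 calls among the members at 30 min (1.04% of all genes in either direction, 1 member at an unadjusted p under 0.05), 2 falls and 1 rise at 1 h (5.61%), 17 falls and 4 rises at 2 h (8.18% and 7.84%), and the 42 falls and 9 rises at 4 h given above. LPS and IFNG gave 6 falls and 1 rise at 1 h (7.62%) and 32 falls and 5 rises at 2 h (10.9% and 9.88%). LPS and 2MA gave 4 falls and 1 rise at 1 h (5.45%) and 23 falls and 4 rises at 2 h (9.23% and 8.56%). IFNG gave 0 calls at 1 h (1.13%, 3 at an unadjusted p under 0.05) and 3 falls and 2 rises at 2 h (3.43%). 2MA gave 0 calls at 1 h (1.41%) and 2 h (1.33%), with 12 and 8 members at an unadjusted p under 0.05. Without set 1 LPS at 2 h gave 8 calls, 7 of them among the 21, and the count fell to 19 of 37 with LPS and IFNG at 2 h and 13 of 27 with LPS and 2MA at 2 h. Without a set, the number of calls was 1 to 3 for IFNG at 2 h, 2 to 6 for LPS and IFNG at 1 h and 1 to 5 for LPS and 2MA at 1 h, the lowest counts of the last 2 coming without set 1 or set 2.

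A moderated F test over the 4 LPS times passed for 30 of 90 members (16.7% of all genes), and 26 of these 30 had their largest change at 4 h. With the sets as a replicate block 43 passed, and without a set 8 to 24. At 4 h minus 2 h, 11 members differed with LPS (6.89% of all genes), 3 with IFNG (1.53%), 13 with LPS and IFNG (7.36%) and 15 with LPS and 2MA (8.56%). With the sets as a replicate block these counts were 21, 10, 21 and 22. Ccna2 fell further between these times with LPS and IFNG (difference -1.08 ± 0.15 SE, limma adjusted p = 3.4e-06), LPS and 2MA (-0.89) and LPS (-0.86), and these 3 differences passed without each set in turn. Its log2 ratios with LPS were -0.01, -0.11, -0.32 and -1.18 at 30 min, 1, 2 and 4 h, so that most of its fall came after 2 h. The call at 2 h was lost without set 1 (adjusted p = 0.274) and without set 2 (0.279). Cdc6 with LPS was at 0.11, -0.21, -0.81 and -1.18 at those times, and its 4 h minus 2 h difference passed with IFNG (-0.75) and with LPS and 2MA (-0.55). Esco2 fell further with IFNG (-1.31), LPS and 2MA (-1.09), LPS and IFNG (-0.90) and LPS (-0.76), and Mcm10 went up with LPS and 2MA (0.88), LPS (0.65) and LPS and IFNG (0.52).

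Leaving out a set changed these differences between times. The number of members that differed was 2 to 9 with LPS, 0 to 6 with IFNG, 2 to 10 with LPS and IFNG and 4 to 15 with LPS and 2MA. With the set left out that raised it most, the adjusted p lay between 0.061 (Cdk2) and 0.593 (Cdc20) with LPS, Ccna2 apart, and between 0.0902 (Esco2) and 0.819 (Cdk1) with IFNG. It lay between 0.0766 (Ccnb2) and 0.613 (Mcm10) with LPS and IFNG, Ccna2 apart, and between 0.0736 (Mcm10) and 0.422 (Cdc20) with LPS and 2MA, Ccna2, Ccnd2 and Esco2 apart. Other members that differed with LPS and IFNG between 4 and 2 h were Cdc20 (-0.82), Kif20a (-0.84), Ccnb2 (-0.66), Cdk1 (-0.63), Cenpk (-0.55), Mcm4 (-0.54), Mcm6 (-0.46), Cdk5r2 (-0.44), Cdk5r1 (-0.93) and Kif3b (0.63). With LPS they were Cdc20 (-0.71), Cdk2 (-0.60), Ccne2 (-0.54), Cenpc1 (-0.62), Mcm4 (-0.62), Cdc42ep4 (-1.002), Ccng2 (0.77) and Cdk2ap2 (0.47), and with IFNG Cdk1 (-0.59). With LPS and 2MA they were Cdc42ep4 (-0.79), Cdc20 (-0.76), Kif20a (-0.74), Cenpf (-0.69), Cenpc1 (-0.66) and Cdk1 (-0.57). The same comparison also gave Ccne2 (-0.54), Cdk2 (-0.54), Cenps (-0.49), Cdk20 (0.55) and Ccnd2 (1.71).

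A few members moved early instead. Cdc42ep4, another Cdc42 effector, gave 1.23, 1.42 and 1.49 at 1 h of LPS, averaged 1.20 at 2 h and 0.19 at 4 h (adjusted p = 0.44). With LPS and IFNG it averaged 1.10, 1.32 and 0.66 at 1, 2 and 4 h and with LPS and 2MA 1.26, 1.34 and 0.55, all past the test, the last not without set 3 (adjusted p = 0.243). Cdk20, a kinase linked to cilia and growth, fell at 1 h with LPS (-0.71, -0.45 and -0.64) and averaged -0.26 at 2 h and 0.15 at 4 h, where it did not pass, while with IFNG it fell at 2 h (-0.48, with an adjusted p of 0.234 and 0.316 without set 2 and set 3) and 4 h (-0.54). Cdc7 fell at 1 h of LPS (-1.02, -0.76 and -0.40, with an adjusted p of 0.258 without set 1), averaged -0.32 at 2 h (adjusted p = 0.19) and fell again at 4 h (-0.71). Ccng2, a cyclin tied to growth arrest, fell at 2 h of LPS (-0.98, -0.92 and -1.37) and in no other group. Cdk5r1, the activator of Cdk5, rose at 2 h with LPS and IFNG (1.25, 0.57 and 1.24), with LPS (1.55, 0.37 and 0.32) and with LPS and 2MA (0.69 and 1.61 in sets 2 and 3, with no value in set 1). Its adjusted p was 0.53 with LPS without set 1 and 0.172 with LPS and 2MA without set 3.

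**Figure D4:**
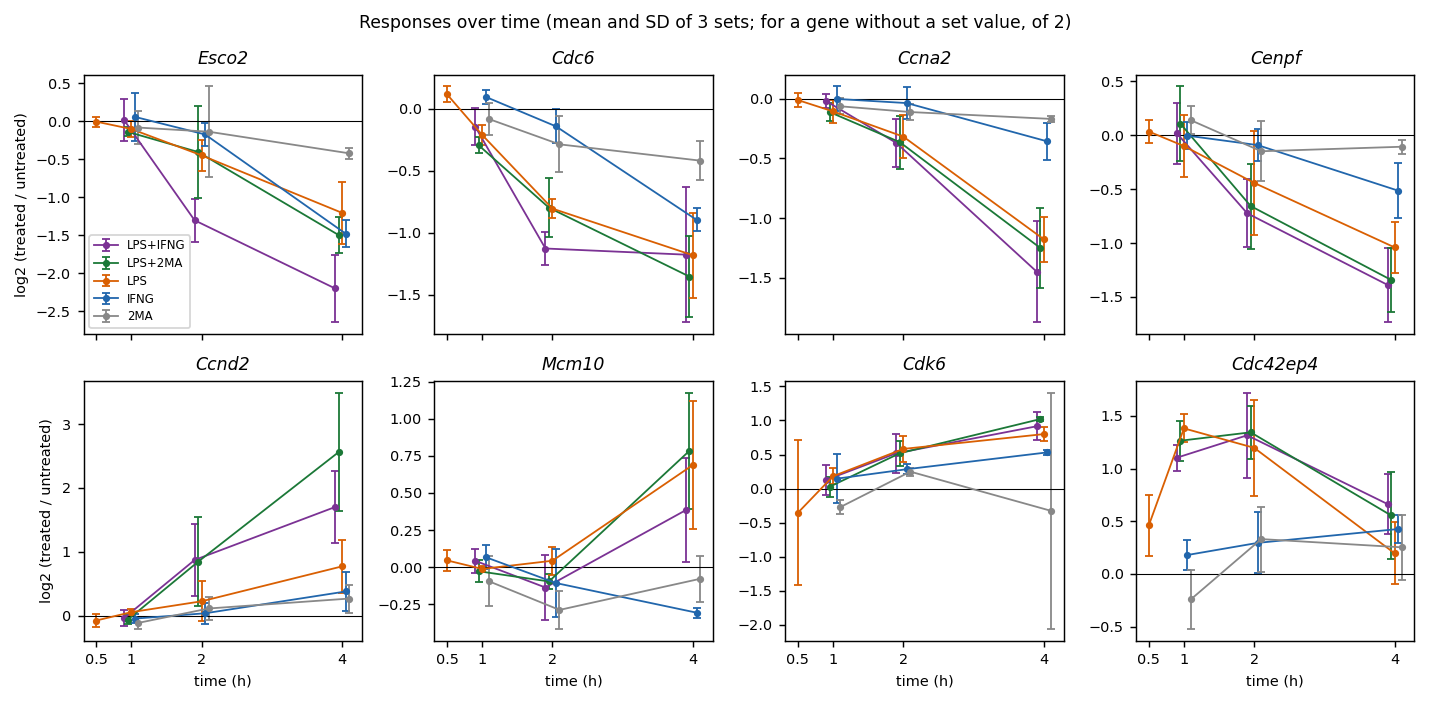
Mean log2 ratio of treated over untreated RNA against time of treatment (30 min for LPS only, then 1, 2 and 4 h) for selected members, with 1 line per treatment, points for the mean and bars for the SD of 3 sets (2 where a set has no value). In the 3 treatments with LPS, Ccna2 stays near 0 until 1 h and drops most between 2 and 4 h, Cdc6 is already down at 2 h and Cdc42ep4 peaks at 1 to 2 h, while with IFNG Cdc6 averages -0.14 at 2 h and -0.90 at 4 h.

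LPS with IFNG gave lower ratios than LPS alone in 3 members at 4 h (3.33%). Of all genes 4.15% differed in either direction, and 179 of 11594 were lower. With LPS and IFNG minus LPS, Cdc42ep3 differed by -0.999 ± 0.23 (SE), Esco2 by -0.995 ± 0.24 and Mcm6 by -0.48 ± 0.11, with limma adjusted p of 0.0040, 0.0085 and 0.0063. With the sets as a replicate block 17 members differed, and without a set 1 or 2. The adjusted p reached 0.0667 for Cdc42ep3 and 0.182 for Esco2 without set 3, and 0.204 for Mcm6 without set 1. LPS and IFNG minus IFNG differed in 14 members (11.1% of all genes), 12 lower and 2 higher, and in 26 with the replicate block. The lower ones were Ccna2 (-1.09 ± 0.15 SE, adjusted p = 9.1e-07), Cenpf (-0.87), Kif20a (-0.75), Esco2 (-0.72), Kif11 (-0.71), Cenpa (-0.58), Mcm6 (-0.58), Cenps (-0.55), Ccnb2 (-0.54), Mcm2 (-0.52), Cdk2 (-0.44) and Ccng1 (-0.44), and the higher ones Ccnd2 (1.32) and Mcm10 (0.69). Without set 1, set 2 and set 3, 2, 8 and 10 of the 14 passed, and Ccna2 alone passed without each set in turn. The highest adjusted p of the others lay between 0.0503 (Mcm6) and 0.634 (Esco2).

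IFNG and LPS differed from each other in 7 members at 4 h, 3 lower and 4 higher with IFNG, where 5.36% of all genes were lower and 4.69% higher. With the replicate block 20 members differed, and without a set 3 to 6. With IFNG minus LPS, Mcm10 was lower by -0.995 ± 0.16 (SE, limma adjusted p = 2.3e-05), Cdk20 by -0.69 and the transcription elongation kinase Cdk9 by -0.36, while Ccna2 (0.82), Ccng1 (0.69), Cdk2 (0.51) and Ccnb2 (0.38) were higher. Ccng1, a target of p53, averaged 0.20 with IFNG (0.24, 0.16 and 0.21, adjusted p = 0.15) and -0.49 with LPS (-0.46, -0.65 and -0.35), and these sets did not overlap. Mcm10 and Ccng1 passed without each set in turn. The highest adjusted p without a set was 0.0657 for Ccna2, 0.0682 for Cdk20, 0.124 for Cdk2, 0.266 for Ccnb2 and 0.434 for Cdk9.

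Cdc6 and Ccne2 departed from the sum of both single responses on the log2 scale. LPS and IFNG minus that sum differed in 2 members (2.22%, where 2.71% of all genes differed), both in the direction of a smaller fall. Cdc6 differed by 0.90 ± 0.21 (SE, limma adjusted p = 0.0087) and Ccne2 by 0.71 ± 0.18 (adjusted p = 0.016). Cdc6 averaged -1.18 with LPS and IFNG, and -1.18 with LPS and -0.90 with IFNG alone. With the replicate block 7 members differed, and without a set 0 to 3. Without set 1 the adjusted p was 0.422 for Cdc6 and 0.788 for Ccne2, and without set 2 it was 0.0818 and 0.112. A p that misses the threshold does not show that the other members add up.

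2MA moved 1 member when added to LPS. With LPS and 2MA minus LPS at 4 h, Ccnd2 was higher by 1.79 ± 0.30 (SE, limma adjusted p = 0.0023, 0.354% of all genes), and it was the only one of 90 also with the replicate block. Its sets with LPS and 2MA (3.10, 3.09 and 1.49) lay above those with LPS (1.14, 0.85 and 0.33), and without set 1 or set 2 the adjusted p was 0.27 or 0.367. At 2 h 0 members differed (0.0949% of all genes, 9 at an unadjusted p under 0.05), where Ccnd2 gave 1.36, 1.13 and 0.05 with LPS and 2MA and 0.49, 0.31 and -0.12 with LPS. LPS and 2MA minus the sum of LPS and 2MA differed in 0 members (0.0604% of all genes, 2 at an unadjusted p under 0.05, and 2 with the replicate block).

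Across the 16 groups 58 members fell in at least 1 group, 17 rose in at least 1, and 16 changed in none, where 28.1% of all genes fell in at least 1, 24.2% rose in at least 1 and 50.6% changed in none. Of the 94 members, Cdc42, Cdc42ep5, Kif1b and Kif2b had too few values to be tested. Among 28 members with several tested probes, 7 had probes more than 0.5 apart on the log2 scale in some group, and none had probes called in opposite directions in a group.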

How the data were processed

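Per the labels, total RNA of treated and untreated RAW 264.7 cells was labelled with Cy5 and Cy3 and hybridised together, once in each dye orientation. The authors deposited log2 ratios per probe, with exact 0 for a large share of probes; the sources used here do not give their scanning, background correction and normalisation. Ratios keep no level and no detection flag, so depth is unknown and the number of arrays limits the precision.

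Zeros were treated as missing (1277 to 2773 per array, 753 probes on every array). The sign was turned where the labels put treated RNA in Cy3, so every value is treated over untreated, and both orientations of a set were averaged where both were present. A probe was tested when each of the 16 groups had values in at least 2 of 3 sets, which left out 2583 of 16281 probes, and probes of a gene were averaged. Probes were named from the platform annotation of 2016, with all member symbols current in RefSeq's mouse table. limma 3.58.1 (R 4.3.3) was fitted with 1 mean per group on the 48 set values, with empirical Bayes moderation and Benjamini-Hochberg adjustment over all 11594 genes in each comparison, at a threshold of 0.05; tests are two-sided. The fit had 32 residual degrees of freedom, and 1.03% of set values were missing and left out of it. The code was tested on simulated data.

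Set numbers pair the samples across groups: deviations of same-numbered sets correlated above 0.1 in every pair of all 11 differences (lowest 0.132, highest 0.729), so a fit with the set number as a replicate block stands beside a result where it changes a call or moves a count by over 1.5 times. Alternatives were each set left out, the replicate block, 1 value per array with a dye term, the spread of the compared groups alone, zeros kept, centred arrays, values required in all 48 sets, no filter, robust moderation and 1 test per probe.

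The members and the lists of partner genes were chosen with earlier results of these data known. Genes named with values are the core replication and cell cycle genes and, per comparison, up to 10 falls and 5 rises past the threshold, with cases of disagreeing probes or sets. Cenps, Cenph, Cdc16, Kif4 and Kif22 and the complete lists of members that differed were added after their values were seen. Promoter windows were searched with exact words on both strands. Figures were drawn with matplotlib 3.10.9.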

Additional observations from a re-analysis of the deposited data

Results flagged for a closer look

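Members were marked for a second look where a test of the difference between 2 conditions passed, and counts here are members past the threshold out of 90. Groups of 3 set values were not searched for a set far from the others. The labels do not say whether comparisons of 1 time share untreated RNA.

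LPS and IFNG minus LPS at 4 h differed in 3 members: Cdc42ep3 (-0.999), Esco2 (-0.995) and Mcm6 (-0.48). LPS and IFNG minus IFNG differed in 14, with the largest sizes in Ccnd2 (1.32), Ccna2 (-1.09) and Cenpf (-0.87). IFNG minus LPS differed in 7, led by Mcm10 (-0.995), Ccna2 (0.82) and Ccng1 (0.69). LPS and 2MA minus LPS differed in 1, Ccnd2 (1.79), with set 3 lower than the other sets in both groups. With the sets as a replicate block these 4 counts were 17, 26, 20 and 1. Members that passed only with the block are not listed.

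Between 4 and 2 h, LPS differed in 11 members, led by Cdc42ep4 (-1.002), Ccna2 (-0.86) and Ccng2 (0.77). IFNG differed in 3: Esco2 (-1.31), Cdc6 (-0.75) and Cdk1 (-0.59). LPS and IFNG differed in 13, led by Ccna2 (-1.08), Cdk5r1 (-0.93) and Esco2 (-0.90). LPS and 2MA differed in 15, led by Ccnd2 (1.71), Esco2 (-1.09) and Ccna2 (-0.89). LPS and IFNG minus the sum of both single treatments differed in 2, Cdc6 (0.90) and Ccne2 (0.71). With the replicate block the counts of this paragraph were 21, 10, 21, 22 and 7.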

How the results depend on the processing

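No named result changed direction under any alternative run. Of the 296 calls of the members against untreated cells, 281 passed with a replicate block, 291 with 1 value per array, 246 with the spread of the compared groups alone and 177, 219 and 243 without set 1, set 2 and set 3.

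Without a set in turn, the counts of called members were 8 to 22 for LPS at 2 h and 33 to 45 at 4 h, 1 to 3 for IFNG at 2 h and 15 to 26 at 4 h, and 0 to 3 for 2MA at each time. They were 2 to 6 and 19 to 32 for LPS and IFNG at 1 and 2 h, and 1 to 5 and 13 to 26 for LPS and 2MA at 1 and 2 h. For the differences they were 1 to 2 for LPS and IFNG minus LPS, 2 to 12 for LPS and IFNG minus IFNG, 3 to 6 for IFNG minus LPS, and 0 to 1 for LPS and 2MA minus LPS at 4 h. They were 2 to 9, 0 to 6, 2 to 10 and 4 to 15 for 4 h minus 2 h of LPS, IFNG, LPS and IFNG, and LPS and 2MA. They were 0 to 3 and 0 to 1 for the sums of LPS and IFNG and of LPS and 2MA, and 8 to 24 for the LPS times.

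With the replicate block the counts were 5 for LPS at 1 h, 17 for LPS and IFNG minus LPS, 26 for LPS and IFNG minus IFNG, and 20 for IFNG minus LPS. They were 21, 10 and 21 for 4 h minus 2 h of LPS, IFNG, and LPS and IFNG, and 7 and 2 for the 2 sums. No other count moved by over 1.5 times. With 1 value per array they were 7 for LPS at 1 h, 7 and 6 for 2MA at 1 and 4 h, and 9 for LPS and 2MA at 1 h. They were 12, 15 and 1 for LPS and IFNG minus LPS, IFNG minus LPS, and LPS and 2MA minus LPS at 2 h, and 18, 8, 20 and 23 for the 4 differences between 4 and 2 h, and 5 and 1 for the sums. With the spread of the compared groups alone they were 11 for LPS at 2 h, 1 for IFNG at 2 h, and 1 for 2MA at 1 h. They were 0, 6, 4 and 0 for LPS and IFNG minus LPS, minus IFNG, IFNG minus LPS, and LPS and 2MA minus LPS at 4 h, and 2, 1 and 4 for 4 h minus 2 h of LPS, LPS and IFNG, and LPS and 2MA, and 0 for the sum of LPS and IFNG. With zeros kept they were 3 for IFNG at 2 h, 1 for 2MA at 4 h and 8 for LPS and IFNG at 4 h minus 2 h, and with 1 test per probe 1 for 2MA at 1 h and at 4 h. The LPS times gave no value without the filter. The fits without a set or with the spread of the compared groups alone have fewer samples; for the rest the cause was not tested.

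Ratios without signal levels allow no check of dim probes, and a typical standard error of 0.113 for a response and 0.159 for a difference (log2) sets the size that 3 sets can show.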

Other observations

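Partner genes of the same processes were followed at 4 h. They come from lists written out by function with earlier results of these data known, so their counts are not independent of those results. Of 37 tested DNA synthesis partners (of 44), 29 fell and 1 rose with LPS and IFNG, 28 fell with LPS and 2MA, 27 fell and 1 rose with LPS, and 14 fell and 1 rose with IFNG. Of all genes 18.8% fell and 15.2% rose with LPS and IFNG, 18.5% and 14.9% with LPS and 2MA, 15.9% and 12.7% with LPS, and 5.99% and 6.30% with IFNG. Tk1 and Rrm2, which make DNA precursors, gave means of -1.53 and -1.44 with LPS and IFNG and -0.59 and -0.86 with IFNG alone, and Gmnn, which blocks origin reloading, -1.50 and -0.51. Pola2, a subunit of the primase complex, rose with LPS and IFNG (0.78, 0.72 and 0.33), LPS (mean 0.37) and IFNG (0.34).

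Of 36 tested mitotic partners (of 47), 33 fell and 1 rose with LPS and IFNG, 32 fell and 1 rose with LPS and 2MA, 30 fell and 1 rose with LPS, and 23 fell with IFNG. Aspm, a spindle pole protein, gave -2.31, -1.81 and -1.35 with LPS and IFNG, and Wee1, the kinase that restrains Cdk1, a mean of -1.30. Pttg1, the securin that holds back separase, rose with LPS and IFNG (1.06, 0.99 and 1.05), LPS and 2MA (mean 0.88) and LPS (0.48, 1.09 and 0.68) but fell with IFNG (-1.19, -0.57 and -0.36), so that its IFNG sets did not overlap with the others.

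Of 8 CDK inhibitors, 3 fell with LPS and IFNG, 4 fell and 1 rose with LPS and 2MA, 4 fell and 1 rose with LPS, and 2 fell and 1 rose with IFNG, too few genes to set against the shares of all genes given above. Cdkn2c, an inhibitor of Cdk4 and Cdk6, averaged -1.35, -1.48, -1.32 and -0.48 in these groups. Cdkn1a, the p53-induced inhibitor of Cdk2, rose with LPS and 2MA (0.77, 0.63 and 0.76), IFNG (0.46) and LPS (0.38), and averaged 0.31 with LPS and IFNG (0.02, 0.07 and 0.84, adjusted p = 0.074 by limma). Of 9 tested E2F and Rb family genes (of 18), 5 fell and 1 rose with LPS and IFNG, 6 fell and 1 rose with LPS and 2MA, 5 fell with LPS and 4 fell with IFNG. E2f1, an activating E2F, averaged -0.77, -1.07, -0.73 and -0.34 in that order, and Rbl2, the pocket protein of resting cells, -1.47, -0.996, -1.02 and -0.81. These lists were not tested as sets.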
